A study of Mus musculus with 10 samples.

Results

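Chromatin accessibility was compared between group 2 innate lymphoid cells (ILC2s) sorted from the large intestine (LI) and from the small intestine (SI) of mice. Accessibility was measured by ATAC-seq, in which a transposase cuts open DNA and inserts sequencing adapters there, as the number of reads in each region. The comparison was between 4 of the 10 libraries of the series, 2 from LI and 2 from SI, and the remaining 6 came from ILC2s of bone marrow (BM), lung and pancreas. All 10 were fitted together, and LI was then contrasted with SI. Every region with at least 1 count was a member, which gave 49981 of the 50039 regions in the table. Each region was described by the nearest transcription start site (TSS) in the RefSeq annotation of GRCm38, the assembly of mm10, and a gene name below means that its TSS was the nearest, not that the region acts on it.

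All mice were wild-type C57BL/6 males aged 6 weeks, and the labels name no treatment. Each LI and SI library held 50000 sorted cells from a pool of 10 mice. LI ILC2s were gated as lineage-negative CD45+ CD127+ ST2+ CD25+ cells, and SI ILC2s as lineage-negative CD45+ CD127+ KLRG1+ cells. For SI the series' design text adds intermediate Thy1, and the study's methods add low Thy1. The lineage antibodies covered T cells, B cells and several myeloid lineages. Tissue and sorting gate changed together, so their parts in any difference cannot be told apart. Whether LI and SI cells came from the same mice was not stated.

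ILC2s are tissue-resident lymphocytes without antigen receptors that answer epithelial alarmins such as IL-33, IL-25 and TSLP with type 2 cytokines. They depend on the transcription factors GATA3 and RORα, and in the gut wall they take part in defence against worms and in repair. Open chromatin marks promoters and the enhancers that a cell has made reachable for transcription factors, many of which read short words of DNA.

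LI ILC2s had higher accessibility at 3449 regions, 6.9% of those tested, and SI ILC2s at 767 regions, 1.53% (edgeR quasi-likelihood test, Benjamini-Hochberg adjusted p under 0.05 over all tested regions). A fit of the 4 intestinal libraries alone gave 1420 and 169 regions. Regions higher in LI lay nearest to 2039 genes and those higher in SI to 657 genes, with 58 genes in both groups. The median log2 fold change (LI over SI) was 1.45 for the former and −1.16 for the latter, beside −0.02 over all tested regions. Median levels were 10.0 CPM (counts scaled to library size by the TMM method) in LI and 3.51 CPM in SI at the regions higher in LI, and 6.53 and 14.7 CPM at those higher in SI. The plot of fold change against mean accessibility shows the excess of regions higher in LI. Of the called regions 81.8% were higher in LI, but only 42.4% when libraries were scaled by their total counts alone, which moved the median of all regions to −0.26 and gave 2301 regions higher in LI and 3125 higher in SI.

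**Figure D1:**
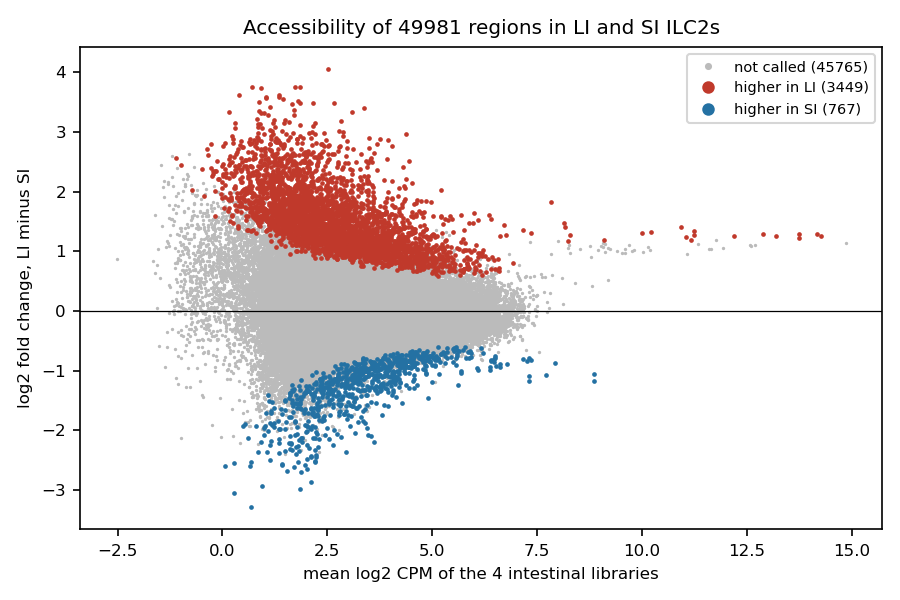
Log2 fold change (LI over SI) of each tested region against its mean log2 CPM, with the regions called higher in LI or in SI coloured. The 3449 regions higher in LI outnumber the 767 higher in SI, and the median over all regions sits at −0.02.

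The LI libraries held 13290901 and 23133684 counts and the SI libraries 18960309 and 26080061. Regions with over 0.1% of any library, 44 in all, took 20.7 to 33.7% of the LI counts and 11.5 to 17.3% of the SI counts. By sequence, 13 regions that resemble the mitochondrial genome took 12.5 to 15.3% of LI and 5.28 to 8.25% of SI counts and were all called higher in LI. SI replicate 1 stood apart from SI replicate 2 at 385 regions by over 2 on the log2 scale, and the reverse held at 38 regions, but 14 of the 767 regions higher in SI were of the former kind. Leaving out 1 library moved the count of regions higher in LI from 1952 (without LI replicate 1) to 4020 (without SI replicate 2), and that of regions higher in SI from 137 (without LI replicate 2) to 1503 (without SI replicate 2). No region was called in the opposite direction under any of 19 alternative settings. Some of these could not reverse a call. The settings with unadjusted p or an added fold change reuse the same fit, and the filter of 10 counts in 2 libraries removed 0 regions. Below, without either LI library means that the same held when LI replicate 1 or LI replicate 2 was left out, 1 at a time.

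The sequences of the central 300 bases of 7 regions are shown here because the results turn on them. The first 4 were more open in LI ILC2s, near Scg2, Il1rl1 (which encodes the IL-33 receptor ST2), Gata3 and the costimulatory receptor gene Icos. The last 3 were more open in SI ILC2s, in an intron of Dtx1 (a regulator of Notch signalling), far downstream of Dhrs3 (a retinaldehyde reductase) and near 0610039H22Rik. All are plus-strand sequence of the RefSeq GRCm38 genome, written 5′ to 3′. Capitals mark matches on either strand to 6 short words. AP-1, the dimers of FOS, JUN and BATF proteins, was sought by TGANTCA and the GATA factors by AGATAAG. The RUNX factors were sought by TGTGGTT and the ETS factors by AGGAAGT. The word GAAANNGAA stood for IRF factors and the word TAGGTCA for ROR factors, and overlapping words were counted each.
Scg2, chr1:79424633-79424932: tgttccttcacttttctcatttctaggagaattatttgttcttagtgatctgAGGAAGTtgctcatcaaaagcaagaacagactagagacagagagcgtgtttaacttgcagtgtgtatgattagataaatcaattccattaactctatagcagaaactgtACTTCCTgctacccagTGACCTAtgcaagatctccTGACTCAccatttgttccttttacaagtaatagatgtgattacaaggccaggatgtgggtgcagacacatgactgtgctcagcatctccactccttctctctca
Il1rl1, chr1:40448370-40448669: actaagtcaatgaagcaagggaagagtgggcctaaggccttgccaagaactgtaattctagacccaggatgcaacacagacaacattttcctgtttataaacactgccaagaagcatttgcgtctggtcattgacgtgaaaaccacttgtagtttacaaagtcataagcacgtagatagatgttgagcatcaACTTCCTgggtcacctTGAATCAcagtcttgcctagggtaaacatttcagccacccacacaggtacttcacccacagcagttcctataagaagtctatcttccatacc
Gata3, chr2:9776032-9776331: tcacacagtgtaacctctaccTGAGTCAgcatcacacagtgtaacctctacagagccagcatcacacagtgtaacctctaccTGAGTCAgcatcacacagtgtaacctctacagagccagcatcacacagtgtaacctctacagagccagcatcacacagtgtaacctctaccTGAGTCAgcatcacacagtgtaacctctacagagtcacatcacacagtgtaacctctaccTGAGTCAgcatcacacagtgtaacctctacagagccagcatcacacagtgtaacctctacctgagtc
Icos, chr1:61054651-61054950: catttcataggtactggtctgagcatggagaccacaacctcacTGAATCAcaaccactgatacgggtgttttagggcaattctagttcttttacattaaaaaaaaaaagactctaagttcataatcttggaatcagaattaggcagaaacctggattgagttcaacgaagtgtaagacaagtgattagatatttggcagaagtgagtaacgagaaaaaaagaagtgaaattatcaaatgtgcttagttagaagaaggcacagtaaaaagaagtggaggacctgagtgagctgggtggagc
Dtx1, chr5:120708967-120709266: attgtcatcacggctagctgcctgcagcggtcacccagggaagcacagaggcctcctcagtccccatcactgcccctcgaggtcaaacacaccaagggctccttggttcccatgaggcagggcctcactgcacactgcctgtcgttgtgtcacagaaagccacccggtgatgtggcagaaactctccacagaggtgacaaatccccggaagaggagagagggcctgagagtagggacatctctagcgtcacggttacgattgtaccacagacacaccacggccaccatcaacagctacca
Dhrs3, chr4:145024683-145024982: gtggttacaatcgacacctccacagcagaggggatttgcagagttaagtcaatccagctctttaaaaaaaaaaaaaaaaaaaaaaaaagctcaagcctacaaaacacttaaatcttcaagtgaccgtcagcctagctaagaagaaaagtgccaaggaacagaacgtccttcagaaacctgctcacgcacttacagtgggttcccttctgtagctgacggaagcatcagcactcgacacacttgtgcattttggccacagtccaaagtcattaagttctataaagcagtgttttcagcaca
0610039H22Rik, chr11:88523963-88524262: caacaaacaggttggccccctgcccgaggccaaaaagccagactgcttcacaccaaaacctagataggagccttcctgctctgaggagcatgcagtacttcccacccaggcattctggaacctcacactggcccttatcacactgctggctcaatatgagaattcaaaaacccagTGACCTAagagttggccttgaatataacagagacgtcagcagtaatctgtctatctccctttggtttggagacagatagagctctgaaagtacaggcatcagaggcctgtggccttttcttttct
Each of the 4 windows more open in LI held an AP-1 word, and the Gata3 window held 4 of them in repeated units, matching itself at a shift of 91 bases over 65.6% of positions. Reads from such repeated units are hard to place, and their part in the count there was not tested. Of the windows more open in SI, those of Dtx1 and Dhrs3 held none of these words, that of 0610039H22Rik held 1 ROR word, and that of the Gzma promoter, not printed, held 1 RUNX and 2 IRF words.

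The largest increase in LI was a region 15.2 kb downstream of the TSS of Scg2, which encodes the neuroendocrine protein secretogranin II (chr1:79424480-79425085, intergenic). Its level was 25.6 and 19.9 CPM in the LI libraries and 1.16 and 1.53 CPM in the SI libraries, a log2 fold change of 4.06 ± 0.30 (SE, n = 2 libraries a tissue, edgeR adjusted p 6.05e-06). Both LI libraries were far above both SI libraries. All 3 regions nearest to Scg2 were higher in LI. The other regions among the 10 largest increases lay near Nebl (a nebulin-family actin protein), Palld (the actin scaffold palladin), Thsd7b, Mospd4, Zswim2, Mc3r (a melanocortin receptor), Il1rl1, S100a10 (a calcium-binding annexin partner) and Hecw2 (a ubiquitin ligase). Their log2 fold changes ran from 3.56 to 3.75, and each of the 10 had every LI library above every SI library, as the naming rule required. LI and SI libraries did not overlap at 50.6% of all tested regions. They did not overlap at 99.97% of the regions higher in LI and 98.96% of those higher in SI. Separation at a called region therefore adds little to its call, here and below.

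A region 102 kb downstream of the TSS of Gata3, the master regulator of ILC2s, stood at 39.1 and 28.1 CPM in LI and 3.27 and 3.07 CPM in SI (chr2:9775886-9776477, log2 fold change 3.40 ± 0.33, adjusted p 2.37e-05). Of 19 regions nearest to Gata3, 4 were higher in LI. For Rora, which encodes RORα, 6 of 29 regions were higher in LI, but 1 without LI replicate 1 and 1 without LI replicate 2. Its leading region, 115 kb upstream of the nearest TSS in an intron of Rora, measured 9.07 and 7.91 CPM in LI and 2.12 and 2.06 CPM in SI (log2 fold change 2.02 ± 0.27, adjusted p 0.000306). The groups did not overlap at either region, as at nearly all called regions.

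Among regions with at least 5 CPM in the higher tissue, the largest increase in SI was in the gene body of Dtx1 (chr5:120708866-120709366, intronic). It measured 1.22 and 1.26 CPM in LI and 8.57 and 11 CPM in SI (log2 fold change −2.97 ± 0.50, adjusted p 0.00156), and both SI libraries exceeded both LI libraries. Regions near Ankrd9, St6gal1 (a sialyltransferase), Bhlha15 (the secretory-cell factor MIST1), Rpia, Rpl37rt, Cybb (the NADPH oxidase subunit gp91phox), Ap3b1, Src (a tyrosine kinase) and Abcc4 (a prostaglandin and nucleotide exporter) followed, at log2 fold changes from −2.86 to −2.52. The SI replicates differed widely at 2 of these. At St6gal1 they gave 19.7 and 2.68 CPM, and without SI replicate 1 the log2 fold change went from −2.69 to −0.60 and no longer passed. At Rpia they gave 22 and 2.72 CPM, and the value went from −2.64 to −0.42 and no longer passed. The region near Src, at 10.4 and 3.17 CPM in SI, went from −2.55 to −1.42 and was no longer called. These 3 calls were also lost without either LI library, as was that at Ankrd9, and the Rpl37rt call was lost without LI replicate 2. The summed level of plasma cell markers was also highest in SI replicate 1 among the 4 intestinal libraries, at 672.9 CPM beside 504.0 CPM in SI replicate 2 and 486.2 and 482.0 CPM in LI, while the marker Jchain had no region. Its part in these calls was not tested.

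Regions called in LI were most numerous at 5 genes, picked by this count among 16316. Over all regions 6.9% were higher in LI. Mdfic, an inhibitor of MyoD-family factors, had 22 of its 26 nearest regions higher in LI, Bach2 (a repressor that restrains lymphocyte effector genes) 16 of 29, Il1rl1 14 of 19, Bace2 (an aspartyl protease) 10 of 12 and Eepd1 10 of 13. Without LI replicate 2 the counts were 14 at Mdfic and 5 at Eepd1. The leading region of Mdfic measured 31.5 and 38.4 CPM in LI and 6.79 and 8.6 CPM in SI (log2 fold change 2.18 ± 0.21). That of Bach2 measured 43.3 and 39.6 CPM in LI and 10.2 and 9.54 CPM in SI (log2 fold change 2.07 ± 0.20). The leading region of Bace2 stood at 9.24 and 10.6 CPM in LI and 1.11 and 0.836 CPM in SI (log2 fold change 3.36 ± 0.30). Both LI libraries exceeded both SI libraries at each.

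The genes with the most regions higher in SI were F830010H11Rik (8 of 11), Pdia4 (8 of 15), 0610039H22Rik (7 of 18), Dhrs3 (6 of 23) and Gm10248 (5 of 12, with 1 higher in LI). They too were picked by this count, and 1.53% of all regions were higher in SI. The region of 0610039H22Rik that led lay in an intron of Msi2, an RNA-binding protein gene, and measured 4.79 and 6.21 CPM in LI and 17.9 and 25 CPM in SI (log2 fold change −1.95 ± 0.27, adjusted p 0.00038). Regions of F830010H11Rik and Pdia4 lay in a neighbouring part of chromosome 6 and changed by less, with medians of −0.85 and −0.79 over all their regions, and each had 0 called without SI replicate 2 or without either LI library. The counts fell to 3 at 0610039H22Rik without LI replicate 1, to 3 at Dhrs3 without LI replicate 2 and to 0 at Gm10248 without LI replicate 1. The panels of fold change by distance from the TSS show that Il1rl1 and Mdfic were higher in LI over much of their length, and that Dhrs3 and 0610039H22Rik leaned to SI.

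**Figure D2:**
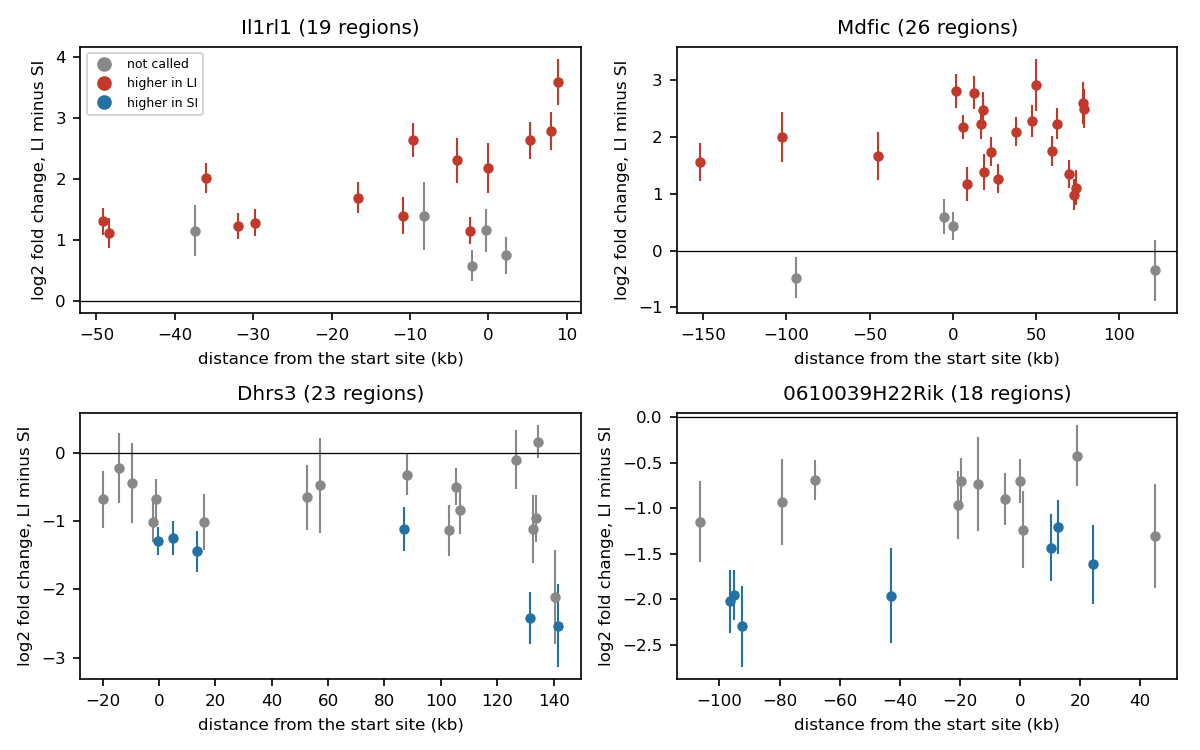
Log2 fold change (LI over SI) with its standard error for every tested region nearest to Il1rl1, Mdfic, Dhrs3 and 0610039H22Rik, plotted by distance from the TSS. Called regions number 14 of 19 for Il1rl1 and 22 of 26 for Mdfic (higher in LI) and 6 of 23 for Dhrs3 and 7 of 18 for 0610039H22Rik (higher in SI).

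Regions higher in LI lay away from promoters. Promoters (from 1000 bases before to 100 after a TSS) made up 4.32% of them (95% Wilson interval 3.69 to 5.05%), 18.5% (15.9 to 21.4%) of the regions higher in SI and 19.0% of all tested regions, where intervals cover counting error only. The share of regions higher in LI was 1.57% of promoters, 7.24% of intragenic and 9.50% of intergenic regions, and it went from 1.62% within 1 kb of a TSS to 15.6% beyond 100 kb. For SI the shares were 1.49%, 1.81% and 1.15%, and 0.981% beyond 100 kb. GC content moved with these groups, with a median of 45.96% for LI, 52.0% for SI and 49.8% for all regions, and its part in the difference was not tested beyond a fit with the GC trend removed, which gave 2522 regions higher in LI and 1035 higher in SI. With that trend removed the promoter share of regions higher in SI was 5.80%, and without SI replicate 1 it was 41.9%.

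AP-1 words marked the regions higher in LI. Among 40472 regions outside promoters, the AP-1 word was in the central 300 bases of 46.6% of the regions higher in LI, 10.9% of those higher in SI and 21.2% of all. Taken over all 49981 regions the shares were 45.5%, 9.78% and 18.3%. Distal regions with the word numbered 8583, of which 17.9% were higher in LI and 0.792% higher in SI, against 5.53% and 1.75% of the 31889 without it. Within 4 equal groups of rising GC content the share in regions higher in LI was 50.0, 46.3, 45.5 and 36.0%, beside 27.7, 24.8, 21.4 and 10.9% of all distal regions. Across the alternative settings it stayed between 38.7 and 53.3% of all regions higher in LI and between 8.26 and 12.1% of those higher in SI.

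Other words differed by fewer percentage points. The GATA word was in 11% of distal regions higher in LI, 6.72% of those higher in SI and 7.34% of all, the ROR word in 5.45%, 3.20% and 3.65%, and the STAT word (TTCNNNGAA) in 10.0%, 5.76% and 8.46%. The IRF word was in 8.03%, 15.0% and 9.63%, the RUNX word in 16.2%, 18.4% and 15.1% and the ETS word in 18.1%, 12.6% and 16.3%. The CTCF core word AGGGGGC was in 2.97%, 9.12% and 7.98%. A matching word is a description of sequence and does not show that a factor was bound.

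**Figure D3:**
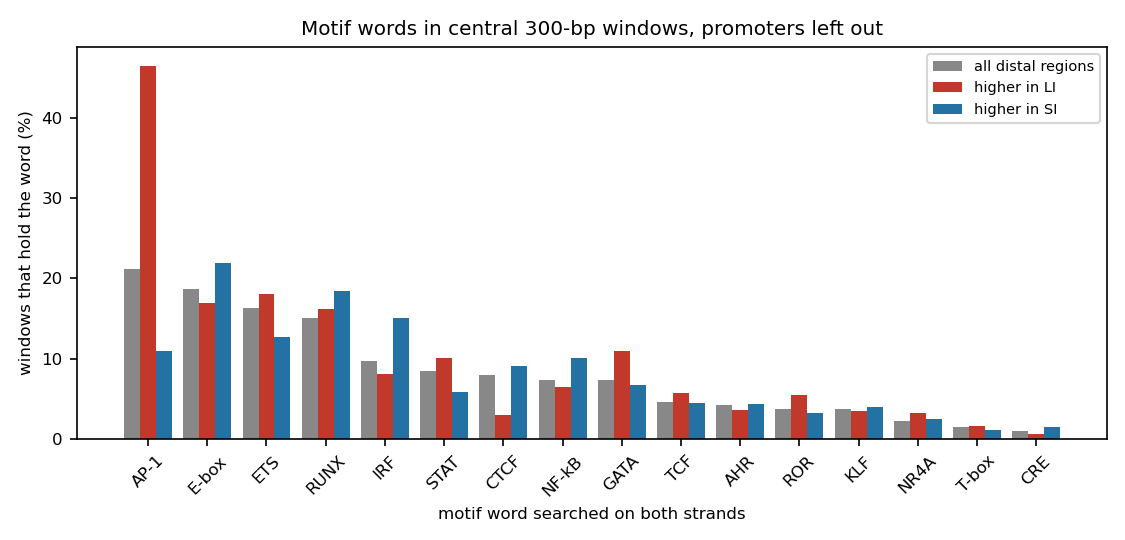
Percent of distal regions whose central 300 bases hold each sequence word, for all distal regions, those higher in LI and those higher in SI. The AP-1 bars stand at 21.2, 46.6 and 10.9% and are the farthest apart.

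The regions higher in LI were also above the median of all regions in pancreas and lung, and below it in bone marrow. Their median log2 CPM was 3.35 and 3.32 in LI, 3.33 and 3.41 in pancreas, 2.96 and 3.02 in lung, 2.22 and 2.33 in bone marrow and 1.77 and 1.88 in SI. Over all tested regions it was 2.99 and 2.97 in LI, 2.89 and 2.95 in pancreas, 2.80 and 2.86 in lung, 2.78 and 2.69 in bone marrow and 2.93 and 2.90 in SI. Both SI libraries fell below the other 8 libraries at 1494 of them (43.3%, beside 7.39% of all tested regions), and both LI libraries lay above the other 8 at 782 (22.7%, beside 4.68%). Regions higher in SI had a median log2 CPM of 4.01 and 3.80 in SI and between 2.43 and 2.90 in the other 8 libraries. Both SI libraries lay above all others at 445 of these 767 regions (58.0%, beside 7.29%), and both LI libraries below all others at 134 (17.5%, beside 3.25%). No test was made on these counts, since the same libraries chose the regions.

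**Figure D4:**
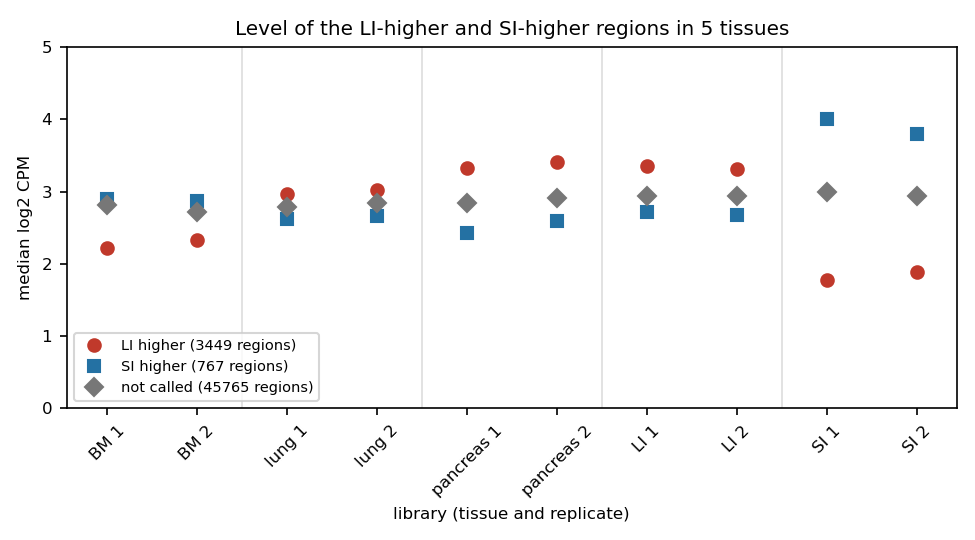
Median log2 CPM in each of the 10 libraries, by tissue, of the regions higher in LI and of those higher in SI. Pancreas and LI sit at 3.32 to 3.41 for the regions higher in LI, and SI at 1.77 and 1.88.

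Of the 6 genes behind the gates, 5 had regions higher in LI and Klrg1 had none. In all, 26 of 89 regions (29.2%) were higher in LI, beside 6.9% of all regions, and 0 in SI, with a median log2 fold change of 0.55 beside −0.02 for all, and DESeq2 gave 29 and 0. The leading region of Il1rl1 stood at 5.32 and 7.82 CPM in LI and 0.626 and 0.488 CPM in SI (log2 fold change 3.58 ± 0.38, adjusted p 4.65e-05). LI cells were sorted on its product ST2, and Il1rl1 held 14 of the 26 regions. Thy1 measured 8.98 and 8.73 CPM in LI and 2.12 and 2.65 CPM in SI (log2 fold change 1.88 ± 0.34). Il7r (CD127) and Ptprc (CD45), which both gates used, led at 2.22 and 1.16, and Il2ra (CD25) had 1 of 13 regions called, at 1.01 with adjusted p 0.0485, which was lost whichever library was left out. The Ptprc call was lost without LI replicate 2 and without SI replicate 1.

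Klrg1, on which SI cells were sorted, had 0 of 8 regions called by edgeR, 0 at unadjusted p under 0.05 and 0 by DESeq2, but 2 were higher in LI without SI replicate 2. Its leading region measured 26.6 and 30.0 CPM in LI and 14.6 and 26.1 CPM in SI (log2 fold change 0.47 ± 0.24, adjusted p 0.242). The LI levels lay just above the higher SI level.

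Receptors for alarmins and growth cytokines had 35 of 130 regions (26.9%) higher in LI, beside 6.9% of all regions. Il1rl1 alone, whose product ST2 was in the LI gate, held 14 of the 35. Il18rap held 5, Il1r1 3, Il1r2 2 and Il18r1 2, and the named regions of Il1r1 and Il18r1 lay on chromosome 1, as did Il1rl1. In SI, 0 were higher by both edgeR and DESeq2 on 10 libraries, while 3 were higher in SI at unadjusted p under 0.05. Leaving out 1 library gave 24 (without LI replicate 2) to 40 (without SI replicate 2) regions higher in LI, and 9 of the 17 genes were represented. The IL-1 receptor gene Il1r1 was higher at its promoter, with 9.59 and 10.5 CPM in LI and 2.5 and 2.96 CPM in SI (log2 fold change 1.87 ± 0.30, adjusted p 0.00112). Il18r1, encoding the IL-18 receptor, gave 8.28 and 14.4 CPM and 3.13 and 3.8 CPM (log2 fold change 1.72 ± 0.28). LI and SI did not overlap at either region. Il17rb, the IL-25 receptor gene, had no region called by edgeR, at unadjusted p under 0.05 or by DESeq2, and its leading region had 5.58 and 5.08 CPM in LI and 5.25 and 7.56 CPM in SI (log2 fold change −0.27 ± 0.35, adjusted p 0.669).

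Type 2 effector genes were mixed, with 11 of 107 regions (10.3%) higher in LI, beside 6.9% of all regions, and 2 (1.87%, beside 1.53%) higher in SI. Without LI replicate 2 the counts were 4 and 0, and with library size alone this turned to 6 and 11. Arg1 (arginase 1) stood at 9.68 and 9.38 CPM in LI and 1.4 and 1.64 CPM in SI (log2 fold change 2.64 ± 0.33). Areg, encoding the tissue-repair factor amphiregulin, gave 18.4 and 19.7 CPM in LI and 4.77 and 10.8 CPM in SI (log2 fold change 1.28 ± 0.30, adjusted p 0.013), and without LI replicate 2 it no longer passed. Il10, encoding the regulatory cytokine IL-10, gave 6.8 and 4.78 CPM in LI and 29.8 and 9.44 CPM in SI (log2 fold change −1.77 ± 0.43), and the value was −0.68 without SI replicate 1, and the call was lost without that library and without either LI library. The 9 regions of Il13 and 5 of Il5 held 0 called by edgeR. At unadjusted p under 0.05, Il13 had 1 higher in LI and 3 higher in SI and Il5 had none, and DESeq2 on 10 libraries called 1 Il13 region. Without SI replicate 1, edgeR called 2 Il13 regions higher in SI. The leading Il13 region measured 8.63 and 10.0 CPM in LI and 16.4 and 15.5 CPM in SI (log2 fold change −0.77 ± 0.24, adjusted p 0.0553).

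Transcription factor genes of the ILC2 lineage had 45 of 345 regions (13%) higher in LI, beside 6.9% of all regions, and 3 higher in SI. Bach2 alone held 16 of the 45. The count was 20 (without LI replicate 2) to 58 (without SI replicate 2) when 1 library was left out. Besides Bach2, Rora and Gata3, Ets1 was higher at 2 of 29 regions (12.8 and 9.34 CPM in LI and 3.66 and 3.9 CPM in SI, log2 fold change 1.54 ± 0.29), and at 1 without either LI library. Runx3, a regulator of innate lymphocytes, was higher in SI at 2 of 21 regions and in LI at 1, and its leading SI region measured 2.35 and 1.69 CPM in LI and 5.58 and 10.5 CPM in SI (log2 fold change −2.01 ± 0.43), a call lost without LI replicate 2 and without SI replicate 2.

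Genes of the immediate early response and of AP-1 itself had 18 of 236 regions (7.63%) higher in LI and 2 higher in SI, near the background of 6.9%, with 9 in LI without LI replicate 1 and 11 without LI replicate 2. Jun stood at 32 and 29.8 CPM in LI and 10.5 and 13.2 CPM in SI (log2 fold change 1.38 ± 0.22), and Fosl2 at 16.4 and 19.4 CPM and 6.35 and 8.26 CPM (log2 fold change 1.29 ± 0.23). Dusp1, a phosphatase that dampens MAP kinases, and Maff were higher in SI, at log2 fold changes of −0.87 ± 0.25 and −0.75 ± 0.22. The Dusp1 call was lost whichever library was left out, and the Maff call without SI replicate 1 and without either LI library. Krüppel-like factors had 21 of 113 regions (18.6%) higher in LI, beside 6.9% of all regions, and 0 higher in SI, where DESeq2 on 10 libraries called 2 and 5 passed an unadjusted p under 0.05, and leaving out LI replicate 1 gave 8 and 1 and LI replicate 2 gave 10 and 0. Klf6 led at 11.2 and 10.1 CPM in LI and 2.46 and 2.33 CPM in SI (log2 fold change 2.15 ± 0.30).

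Checkpoint and costimulatory receptor genes had 26 of 144 regions (18.1%) higher in LI, beside 6.9% of all regions, falling to 7 without LI replicate 2, and 2 higher in SI. Icos, a costimulatory receptor of ILC2s, was higher at 6 of 22 regions, the leading one at 32.6 and 35.1 CPM in LI and 4.14 and 5.5 CPM in SI (chr1:61054397-61055204, log2 fold change 2.80 ± 0.22, adjusted p 6.05e-06), and at 3 without SI replicate 1 or without either LI library. Cd28 was higher at 6 of 8 regions, with 31.1 and 36.4 CPM in LI and 7.65 and 13 CPM in SI at the leading one (log2 fold change 1.70 ± 0.26), and at 1 region without LI replicate 2. Pdcd1, encoding the inhibitory receptor PD-1, gave 41.5 and 79.2 CPM and 22 and 26.7 CPM (log2 fold change 1.31 ± 0.26) at its leading region. The LI libraries lay far apart there, and without LI replicate 2 the value was 0.79 and the 4 called regions of Pdcd1 became 0. LI exceeded SI in every library at the leading regions of these 3 genes. Lag3, another inhibitory receptor gene, was higher in SI, at 2.35 and 1.78 CPM in LI and 6.74 and 6.69 CPM in SI (log2 fold change −1.71 ± 0.49, adjusted p 0.0378), but the call was lost whichever library was left out. The leading regions of Tnfrsf9 (4-1BB) and Lilrb4a did not pass, at log2 fold changes of 0.55 ± 0.26 and 0.60 ± 0.24. Lilr4b, the neighbour of Lilrb4a and the gene the study names, was added after its values were seen. It had 1 of 4 regions higher in LI (log2 fold change 0.73 ± 0.20, adjusted p 0.0297), 0 without SI replicate 1 or without either LI library, 2 without SI replicate 2, 3 by DESeq2 on 10 libraries and 0 by DESeq2 on 4.

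Granzyme, perforin and NK receptor genes had 11 of 75 regions (14.7%) higher in LI, beside 6.9% of all regions, and 2 higher in SI (2.67%, beside 1.53%). Without LI replicate 2 the count in LI was 7, and that in SI was 0 without any of the libraries other than SI replicate 2. Some NK receptor genes of the complex on chromosome 6 were higher in LI and others did not pass. Klrd1 stood at 18.2 and 17.6 CPM in LI and 2.07 and 3.17 CPM in SI (log2 fold change 2.76 ± 0.31), Klrc1 at 23.8 and 34.9 CPM and 4.62 and 6.79 CPM (2.36 ± 0.35), and the promoter of Klrk1 (NKG2D) at 18 and 26.2 CPM and 7.51 and 8.15 CPM (1.50 ± 0.25, adjusted p 0.00126). Klrb1b had 1 of 10 regions higher in LI. Klrb1 had 0 of 3 and Klrb1c 0 of 9 called by edgeR or DESeq2, with 2 and 1 higher in SI at unadjusted p under 0.05. These members of a gene family are close in sequence, and uniquely mapped reads were counted. At the Gzma promoter the order turned, with 1.66 and 1.74 CPM in LI and 6.02 and 6.27 CPM in SI (log2 fold change −1.85 ± 0.50, adjusted p 0.0288). The groups were apart, but the call was lost whichever library was left out, with values from −1.87 to −1.80.

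Neuropeptide receptor genes had 14 of 78 regions (17.9%) higher in LI, beside 6.9% of all regions, and 1 higher in SI, with 9 in LI without either LI library. Most belonged to the receptor for calcitonin gene-related peptide, which is built of the products of Calcrl and Ramp1. Ramp1 was higher at 9 of 10 regions, the leading one at 11.9 and 12.9 CPM in LI and 3.51 and 3.87 CPM in SI (log2 fold change 1.74 ± 0.22, adjusted p 0.000177), and at 5 without SI replicate 2. Calcrl was higher at 3 of 9, led by 11.2 and 11.3 CPM and 1.83 and 1.92 CPM (log2 fold change 2.58 ± 0.31), and at 1 without LI replicate 1. Vipr2, a receptor gene for vasoactive intestinal peptide, was higher in SI (−1.33 ± 0.32), a call lost without LI replicate 1 and without SI replicate 2. Ret, the receptor for glial-derived ligands, had 3.05 and 1.78 CPM in LI and 6.35 and 6.2 CPM in SI at its leading region and did not pass (log2 fold change −1.41 ± 0.48, adjusted p 0.0796).

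Leukotriene and prostaglandin genes had 12 of 89 regions (13.5%) higher in LI, beside 6.9% of all regions, 5 without LI replicate 1, and 2 higher in SI. The prostaglandin E2 genes Ptger1 (a receptor, 1.74 ± 0.33), Ptger2 (a receptor, 1.03 ± 0.20) and Ptges (the synthase, 1.61 ± 0.25) were higher in LI on the log2 scale. The cysteinyl leukotriene genes went both ways. Cysltr1, a receptor gene, had 2 of 9 regions higher in LI, both lost without SI replicate 1 and without either LI library. Cysltr2, the other receptor gene, was higher in SI at 1 of 5 regions, which measured 2 and 0.912 CPM in LI and 7.22 and 5.89 CPM in SI (log2 fold change −2.23 ± 0.50), and no longer passed without LI replicate 2. The region of Ltc4s, encoding the synthase, stood at 32.5 and 28.3 CPM in LI and 49.6 and 49.1 CPM in SI (log2 fold change −0.70 ± 0.18), and its call was lost without SI replicate 1 and without either LI library. Receptors for homing and residency had 20 of 170 regions (11.8%) higher in LI, beside 6.9% of all regions, and 0 higher in SI, where 8 had an unadjusted p under 0.05, DESeq2 on 10 libraries called 1, and 9 were higher in LI without LI replicate 2. Among the 20 were the promoters of Ccr8 (0.87 ± 0.19) and Gpr35 (1.25 ± 0.22) and a region of Cxcr4 (2.1 ± 0.38).

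The retinoid pathway leaned to SI. Of 86 regions, 9 (10.5%, beside 1.53% of all) were higher in SI and 2 in LI, with a median log2 fold change of −0.41, and leaving out 1 library gave 4 (without LI replicate 2) to 10 (without SI replicate 1) higher in SI. Dhrs3, whose product reduces retinaldehyde, accounted for 6 of the 9, and for 3 without LI replicate 2. Its leading region lay 132 kb from its TSS in an intron of Vps13d and measured 1.66 and 2 CPM in LI and 7.46 and 12.4 CPM in SI (log2 fold change −2.42 ± 0.38, adjusted p 0.00104). The promoter of Dhrs3 stood at 14.1 and 16.2 CPM in LI and 35.2 and 39.1 CPM in SI (log2 fold change −1.29 ± 0.21, adjusted p 0.00124). Both SI libraries were above both LI libraries at both. Hic1, a retinoid-responsive repressor of intestinal lymphocytes, was higher in SI (−1.43 ± 0.26), as were Cyp26b1, which degrades retinoic acid (−1.43 ± 0.40), and the receptor gene Rxrb (−0.91 ± 0.27). Rara (0.95 ± 0.22) and Rarg (1.38 ± 0.34), also retinoid receptor genes, were higher in LI. The Cyp26b1 call was lost whichever library was left out and the Rxrb call without SI replicate 2 and without either LI library. The Rara call was lost without LI replicate 1, and the Rarg call without LI replicate 2 and without SI replicate 2.

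The aryl hydrocarbon receptor pathway had 0 of 31 regions called by edgeR, 0 by DESeq2, and 6 higher in LI and 1 higher in SI at unadjusted p under 0.05. EdgeR called 1 Ahr region higher in LI without SI replicate 1 and 2 without SI replicate 2. Ahr, the receptor gene, had 20.0 and 15.4 CPM in LI and 6.69 and 12.6 CPM in SI at its leading region (log2 fold change 0.86 ± 0.30, adjusted p 0.0831). Tiparp, a target of that receptor, gave 5.23 and 4.34 CPM and 13.1 and 3 CPM (−0.75 ± 0.56, adjusted p 0.43). SI replicate 1 alone was high there. The Ikaros family of zinc finger factors had 1 of 47 regions (2.13%) called in each direction, beside 6.9% and 1.53% of all regions, and 6 higher in LI without SI replicate 2. Both lay near Ikzf2, at 0.81 ± 0.21 and −1.29 ± 0.38. The LI call was lost without LI replicate 2 and without SI replicate 1, and the SI call without SI replicate 2 and without either LI library. The 7 regions of Ikzf3 had 0 called by edgeR, at unadjusted p under 0.05 and by DESeq2.

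The remaining lists are read against 6.9% of all regions higher in LI and 1.53% higher in SI. Notch genes had 13 of 122 regions (10.7%) higher in LI and 3 in SI, which turned to 7 and 9 with library size alone and to 6 and 2 without either LI library. Notch2 led in LI at 1.98 ± 0.29 on the log2 scale. Interferon regulatory genes had 10 of 150 regions (6.67%) higher in LI and 1 in SI (5 and 8 with library size alone, 5 and 0 without either LI library), among them Irf4 (2.73 ± 0.24) and Socs1 (2.77 ± 0.23). TGF-β genes had 7 of 146 regions (4.79%) and 1 (3 and 5 with library size alone), with 2 and 3 without LI replicate 2, 3 and 0 without SI replicate 1 and 12 and 6 without SI replicate 2. Clock genes had 7 of 74 regions (9.46%) and 1 (3 and 7 with library size alone), with 2 and 0 without LI replicate 2, 3 and 0 without LI replicate 1 and 4 and 2 without SI replicate 1. Hypoxia genes had 7 of 81 regions (8.64%) and 0 (5 and 1 with library size alone), with 3 and 0 without either LI library and 11 and 2 without SI replicate 2. For them DESeq2 called 0 higher in SI and 10 passed an unadjusted p under 0.05. Antigen presentation genes had 1 of 47 regions (2.13%) and 2 (0 and 8 with library size alone), with 5 higher in SI without SI replicate 2 and 0 without any of the other 3 libraries. Per1, a clock gene, was higher in SI at its promoter (−0.80 ± 0.21), and regions near the MHC class II genes H2-Ab1 (−1.0 ± 0.24) and H2-Aa (−0.90 ± 0.25) were higher in SI as well. The Per1 and H2-Ab1 calls were lost without SI replicate 1 and without either LI library, and the H2-Aa call whichever library was left out.

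Some gene sets named here came from the study's single-cell RNA comparison of ILC2s across 5 tissues, so they are not independent of these tissues. Higher or lower in those lists is against the other tissues, not LI against SI alone. Genes listed as lower in SI had 73 of 195 regions (37.4%, beside 6.9% of all regions) higher in LI and 2 higher in SI. The count in LI was 50 (without LI replicate 2) to 74 (without SI replicate 1) when 1 library was left out, and 18 of 30 genes were represented. S100a10, Klf6, Mdfic, Ramp1, Thy1 and Il1rl1 were among them. Mdfic held 22 of the 73 regions, Ramp1 9 and Il1rl1, whose product was in the LI gate, 14. Genes listed as higher in LI had 87 of 656 regions (13.3%, beside 6.9% of all) higher in LI and 1 in SI, with 32 in LI without LI replicate 2. Genes listed as higher in SI had 12 of 196 regions (6.12%, beside 1.53% of all) higher in SI and 4 in LI. The count in SI was 4 without LI replicate 1 and 9, beside 12 in LI, without SI replicate 2.

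Markers of other cells were measured next to these results, and their part in them was not tested. ILC3 markers had 6 of 21 regions (28.6%, beside 6.9% of all) higher in LI, 3 without LI replicate 2, and 0 in SI by edgeR and DESeq2 (1 at unadjusted p under 0.05), at Il17a (1.48 ± 0.31), Il17f (1.87 ± 0.45), Il22 (1.24 ± 0.24) and Il1r1, while Il23r and Ncr1 had no region. ILC1 and NK markers had 3 of 42 higher in LI, at Ifng (2.04 ± 0.31) and Klri2, and 1 in SI, at Ccl5 (−1.15 ± 0.25). T cell markers had 1 of 21 higher in LI, and 0 with any library left out, and Cd8a, Cd8b1 and Foxp3 had no region. The B cell markers had 0 of 13 by edgeR, with 2 in each direction at unadjusted p under 0.05 and 1 by DESeq2 on 10 libraries, and Cd79a, Ms4a1 and Pax5 had no region. Myeloid markers had 1 of 18, mast cell and basophil markers 3 of 18, and epithelial markers 1 of 19 higher in LI. Regional identity genes of the gut had 0 of 6 called by edgeR, with 1 in each direction at unadjusted p under 0.05 and 1 by DESeq2 on 10 libraries. Stromal and endothelial markers had 3 of 35 higher in LI and 2 in SI. Plasma cell markers, added after the data were seen, had 2 of 54 regions (3.70%) higher in LI and 5 (9.26%) in SI, beside 6.9% and 1.53% of all (3 to 11 in SI with 1 library left out), at Bhlha15 and Pou2af1 (−2.24 ± 0.45).

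Chromosome 11 held 167 of the 767 regions higher in SI, 4.49% of its 3718 regions, beside 0.53 to 2.42% on the other autosomes and X. Its median log2 fold change was −0.34, those of the other autosomes and X ran from −0.18 to 0.15, and it was −0.35 with the GC trend removed. It was −0.32 without SI replicate 1 and −0.24 without SI replicate 2. Outside chromosome 11, 600 regions were higher in SI, 1.30% of those tested. The named regions of 0610039H22Rik, Hic1, Per1, Ltc4s and Ccl5, all higher in SI, lay on chromosome 11. Those of Il13, Il5 and Ikzf3, not called, lay there too, as did that of Rara, higher in LI. From 80 to 90 Mb, where 0610039H22Rik and Ccl5 lie, 23 of 311 regions were higher in SI, with a median of −0.43. The part of this shift in those results was not tested.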

How the data were processed

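ATAC-seq libraries were made from ILC2s of 5 mouse tissues, 2 libraries each. Per the labels and the study's methods, the authors checked reads with FastQC 0.11.9, aligned them to mm10 with Bowtie2 2.2.9, kept uniquely mapped reads, converted formats with SAMtools 1.8, called peaks with MACS2 2.1.1 where both replicates had them, merged peaks with HOMER, counted reads per region with bedtools and tested with DESeq2. The deposited table holds raw counts per region, pooled over no libraries. Whether its start coordinates count from 0 or from 1 was not given, so positions are as deposited.

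Counts were fitted in edgeR 4.0.16 (R 4.3.3) with TMM scaling and a quasi-likelihood model over all 10 libraries, which share one estimate of the spread, and LI was contrasted with SI over the 49981 regions with at least 1 count. A region was called at a Benjamini-Hochberg adjusted p under 0.05. Each standard error is the log2 fold change divided by the square root of the F statistic. With 2 libraries a tissue an exact permutation test cannot go below p = 0.333. The study's methods call the 2 libraries of a tissue biological duplicates and do not say whether each had its own pool of mice, so p-values measure only the spread between these libraries. The steps were tested on simulated data for LI against SI over 49981 regions. There 29 of 100 regions changed 2-fold and 83 of 100 changed 4-fold were recovered, with 2 false calls. Outside the changed regions the simulated counts had the same mean in every tissue, with no GC trend and no deviant library. The 2 false calls therefore do not measure how many of the calls in the real data are false. Words were sought in the central 300 bases of each region on both strands.

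Named regions were the 10 largest called changes in each direction with at least 5 CPM in the higher tissue and no overlap of libraries, 1 a gene, the 5 genes with the most called regions, the leading region of genes the study names, and up to 4 genes a direction in each list. The members and lists were chosen with earlier results of these data known. Neither labels nor methods say whether the replicate numbers of LI and SI form pairs, and the main fit did not pair them. The difference of replicate 1 minus 2 correlated between LI and SI at r = 0.196, which does not settle it. Alternatives changed the scaling, filter, tool (DESeq2 1.42.0), libraries fitted and trends in GC and mean count, and left out each library. 2 of them, on high-count regions, and the plasma cell list were chosen after seeing the data.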

Additional observations from a re-analysis of the deposited data

How the results depend on the processing

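Regions higher in LI and in SI numbered 3449 and 767, against 2301 and 3125 with library size alone, 3425 and 821 with DESeq2 size factors, 4009 and 1296 with DESeq2 on 10 libraries, 2189 and 453 with DESeq2 on the 4 intestinal libraries, 1420 and 169 with edgeR on those 4, 2522 and 1035 with the GC trend removed, 3413 and 1656 with the mean count trend removed, 7443 and 4808 at unadjusted p under 0.05 and 2952 and 500 with an added log2 fold change of 1. Leaving out 1 library gave 1952 to 4020 and 137 to 1503. The share of calls higher in LI was 81.8%, and 70.9% and 67.3% with the GC and mean count trends removed. The fit with the replicate block gave 3553 and 780, and the correlation of the replicate differences between LI and SI was 0.196.

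No region was called in opposite directions in any of 19 alternatives, some of which, as said above, could not reverse a call. Of 143 named regions, 132 were called, 65 kept the call in every alternative and 141 kept the direction. The exceptions were Tiparp, from −1.45 without SI replicate 2 to 0.71 without SI replicate 1, and Il17rb, from −0.47 without SI replicate 1 to 0.035 without SI replicate 2. The cause was not tested. Promoter shares ran from 3.09 to 7.60% for LI and from 5.80 to 41.9% for SI. Depth, with 90 counts in the median region of LI replicate 1, and 2 libraries a tissue limit what could be called.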

Other observations

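Of 9509 promoters, 149 (1.57%, beside 6.9% of all regions) were higher in LI and 142 (1.49%, beside 1.53%) higher in SI. The promoter of Serpinb2, a plasminogen activator inhibitor gene, measured 8.46 and 8.56 CPM in LI and 1.16 and 0.766 CPM in SI (log2 fold change 3.16 ± 0.34, adjusted p 5.39e-05). That of Klrc2, an NK receptor gene, measured 10.3 and 12.9 CPM in LI and 2.02 and 3.52 CPM in SI (log2 fold change 2.06 ± 0.37, adjusted p 0.00234). In both, every LI library was above every SI library. On the SI side the promoter of Noxa1, an activator of NADPH oxidase, measured 9.41 and 7.65 CPM in LI and 19.2 and 31.3 CPM in SI (log2 fold change -1.58 ± 0.29, adjusted p 0.0027). The promoter of Prr5, a component of the mTORC2 kinase complex, measured 5.84 and 4.69 CPM in LI and 19.5 and 12.6 CPM in SI (log2 fold change -1.62 ± 0.34, adjusted p 0.00755). SI libraries exceeded LI libraries at both. These promoters were picked after their values were seen.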
